A study of Mus musculus with 12 samples.

Results

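The genes of the MCM helicase and of replication origin licensing were followed across P80R B-ALL cells, Pax5 KO cells and Pax5 WT cells of the mouse. The set was chosen by name and holds 10 of the 21885 genes of the expression table. They are the 6 subunits of the replicative helicase (Mcm2, Mcm3, Mcm4, Mcm5, Mcm6 and Mcm7), the loading factors Cdc6 and Cdt1, the Cdt1 inhibitor geminin (Gmnn) and the helicase activator Cdc45. All 10 were found by symbol and all 10 passed the filter on low values. The lowest reading of any of them was 1125 reads, for Cdt1 in the leukaemia of recipient 1308.

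RNA from sorted cells was sequenced in 12 libraries, 4 per group. P80R B-ALL libraries were made from GFP-positive B-cell acute lymphoblastic leukaemia cells that carry the PAX5 P80R mutant, taken from primary recipients 1300, 1301, 1302 and 1308. Pax5 KO libraries were made from lymphoid progenitors of Pax5-/- fetal liver, sorted at the common lymphoid progenitor (CLP) and pre-pro-B stage. Pax5 WT libraries were made from pro-B and pre-BI cells sorted out of Pax5+/+ fetal liver. Pax5 is the transcription factor that commits progenitors to the B lineage, so genotype and sorted stage differ together between the fetal liver groups and cannot be told apart. P80R B-ALL differs from both fetal liver groups in leukaemia, mutant, source (recipients) and GFP sorting together. Those features also cannot be told apart. The sources used here do not give the strain, the age of the recipients, the way in which the mutant was introduced or whether the leukaemic cells also lack endogenous Pax5. They also do not say whether the 4 fetal liver libraries of a group came from separate fetuses, so p values measure the spread between these libraries, which may be technical.

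Origin licensing is the step that prepares chromosomes for replication. In late mitosis and G1, the origin recognition complex and Cdc6 mark origins, and Cdt1 brings in the ring of MCM2-7, which is locked around DNA in an inactive form. In S phase, Cdc45 and the GINS complex join the ring and turn it into the active helicase, while geminin binds Cdt1 and destruction of Cdt1 by ubiquitin ligases keeps origins from being licensed again before the next division. Transcription of most of these genes is driven by E2F factors as cells leave quiescence, and pro-B and pre-B cells pass through phases of rapid division between the steps of immunoglobulin gene rearrangement.

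The promoter windows of the set were searched for the E2F-type site (TTTCCCGC, TTTCGCGC, TTTGCCGC or TTTGGCGC, on either strand). Windows run from 250 bases before to 50 bases after the RefSeq start site on GRCm38.p6, and 8 of the 10 genes had one; Mcm4 and Gmnn are not shown. At least 1 site was found in Mcm3, Mcm5, Mcm6, Mcm7, Cdt1 and Cdc6, 6 of the 8 genes, against 704 of the 27025 genes in the RefSeq table (2.60%); Mcm2 and Cdc45 held none. The 3 windows with sites that show the arrangements are those of Mcm3 (chr1:20820263-20820562, minus strand), Mcm5 (chr8:75109259-75109558, plus strand) and Mcm6 (chr1:128359656-128359955, minus strand), printed 5′ to 3′ in the direction of transcription with the sites in capitals. The windows of Mcm2 (chr6:88898731-88899030, minus strand) and Cdc45 (chr16:18811923-18812222, minus strand) are shown beside them as those with no match.
Mcm3: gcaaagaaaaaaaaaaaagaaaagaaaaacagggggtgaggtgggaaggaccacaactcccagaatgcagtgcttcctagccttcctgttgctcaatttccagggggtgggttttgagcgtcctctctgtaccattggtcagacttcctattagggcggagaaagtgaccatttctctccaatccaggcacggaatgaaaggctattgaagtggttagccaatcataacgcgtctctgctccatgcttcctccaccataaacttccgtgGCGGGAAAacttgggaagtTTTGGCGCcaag
Mcm5: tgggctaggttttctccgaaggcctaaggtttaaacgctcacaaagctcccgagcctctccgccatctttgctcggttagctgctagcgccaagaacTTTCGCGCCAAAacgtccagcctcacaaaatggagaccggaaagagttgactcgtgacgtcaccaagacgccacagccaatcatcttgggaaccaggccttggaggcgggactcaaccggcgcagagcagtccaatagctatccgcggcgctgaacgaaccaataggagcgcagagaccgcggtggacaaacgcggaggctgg
Mcm6: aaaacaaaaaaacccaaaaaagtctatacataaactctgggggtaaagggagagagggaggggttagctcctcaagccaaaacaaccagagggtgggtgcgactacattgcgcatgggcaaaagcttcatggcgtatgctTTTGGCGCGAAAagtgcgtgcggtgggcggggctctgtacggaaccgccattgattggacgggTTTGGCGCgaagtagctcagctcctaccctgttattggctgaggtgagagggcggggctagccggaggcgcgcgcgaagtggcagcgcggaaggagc
Mcm2: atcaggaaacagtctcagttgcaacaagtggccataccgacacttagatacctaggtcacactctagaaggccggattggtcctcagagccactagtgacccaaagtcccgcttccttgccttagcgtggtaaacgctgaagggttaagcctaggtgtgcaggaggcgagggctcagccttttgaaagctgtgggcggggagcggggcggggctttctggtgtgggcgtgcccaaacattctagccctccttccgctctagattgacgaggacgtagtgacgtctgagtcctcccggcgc
Cdc45: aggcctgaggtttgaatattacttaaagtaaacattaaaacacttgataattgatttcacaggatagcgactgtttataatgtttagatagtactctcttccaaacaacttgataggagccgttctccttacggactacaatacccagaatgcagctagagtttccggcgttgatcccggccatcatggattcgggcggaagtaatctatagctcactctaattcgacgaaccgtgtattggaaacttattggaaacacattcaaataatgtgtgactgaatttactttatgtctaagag
In Mcm5 and in Mcm6 a site on the plus strand and a site on the minus strand interlock and share 4 bases, starting at -153 and -149 in Mcm5 and at -110 and -106 in Mcm6, counted from the start site, and Mcm6 has a further site at -47. In Mcm3 both sites lie after the start site, at 20 and 39. The same sites without their first T were present in 6 of the 8 genes too, and in 10.9% of all genes in the table. A CCAAT box stood in 6 of the 8 genes, against 41.1% of all genes, and the CHR-type element TTTGAA in Mcm2 and Cdc45, 2 of the 8, against 20.2%. A match of letters is a description of the window and shows no binding. The part of these sites in the levels was not tested.

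Depth was 24914250 to 29386256 reads per library in P80R B-ALL, 36871775 to 43513852 in Pax5 KO and 33191950 to 39465256 in Pax5 WT. The B-ALL libraries stood apart in their spread: the median SD of a gene's log2 value was 0.47 in P80R B-ALL, 0.11 in Pax5 KO and 0.16 in Pax5 WT. Pax5 itself was at 255 to 1316 in P80R B-ALL, 229.9 to 267 in Pax5 KO and 6194 to 7315 in Pax5 WT. The sum of 7 B-lineage markers was 71527 to 127523 in P80R B-ALL, 32712 to 34667 in Pax5 KO and 225032 to 266375 in Pax5 WT, so it was lower in every leukaemia than in any Pax5 WT library. Of 8 erythroid markers, the transferrin receptor Tfrc, which dividing cells of other lineages also express, was at 5567 to 12099 in P80R B-ALL, 19720.1 to 22137 in Pax5 KO and 19602 to 25932 in Pax5 WT. The sum of the other 7 was 135743, 12131, 11037 and 365439 in recipients 1300, 1301, 1302 and 1308, against 174 to 227 in Pax5 KO and 96.9 to 179.8 in Pax5 WT, so it was high in all 4 leukaemias and highest in recipients 1300 and 1308. None of the 8 was at 0 in P80R B-ALL, and 3 to 5 of them were at 0 in each fetal liver library. Summed granulocyte and monocyte markers (6 genes) were 71119, 7317, 857 and 166586 in the same 4 leukaemias, against 7483 to 8199 in Pax5 KO and 19.0 to 33.5 in Pax5 WT. Recipients 1300 and 1308 were again the highest. Most of the sum was S100a8 in recipient 1300 (67554), Ctsg in recipient 1301 (5652), and S100a8 and Ly6c2 in recipient 1308 (77275 and 82464). Mpo (9.92 to 2357) and Prtn3 (44.7 to 1270) were below Pax5 KO (4655 to 5124 and 1777 to 2174). By limma 0 of the 6 were higher than in Pax5 KO and 2 lower, against 1 and 0 by edgeR and 2 and 0 by DESeq2. Summed T-lineage markers (3 genes) were 5270 to 13927 in P80R B-ALL, 2344 to 2420 in Pax5 KO and 363 to 492 in Pax5 WT. Lck made up most of that sum in every library, at 5002 to 13799, 2327 to 2404 and 363 to 492 in the same groups. Cd3e was at 10.5 to 834, 0 to 3.43 and 0, and Cd3g at 42.1 to 852, 9.39 to 24.9 and 0. Summed NK markers (3 genes, of which 2 were tested) were 892 to 3402, 1583 to 1771 and 328 to 512. Results for P80R B-ALL are also given without recipients 1300 and 1308, an omission that does not remove the markers of other lineages. Against Pax5 WT, recipients 1301 and 1302 alone still had 5 of 8 erythroid markers higher (median log2 difference 5.78), 5 of 6 granulocyte and monocyte markers (4.17), 4 of 4 macrophage markers (7.97), 3 of 3 T-lineage markers (6.35) and 1 of 2 NK markers (2.54) by limma.

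Levels are scaled read counts, which are the authors' reads multiplied by 1 factor per library (the signal in the deposited table), and a value after ± beside a level is the SD over 4 libraries. Transcript levels can be compared between genes only per length, and per kilobase of annotated exon the highest member in every group was Mcm6, at 6419 ± 1467 in P80R B-ALL, 9022 ± 722 in Pax5 KO and 8582 ± 77.8 in Pax5 WT (mean ± SD, n = 4 each). The lowest were the loading factors and Cdc45. Cdc6, the ATPase that recruits the ring together with the origin recognition complex, had 614 ± 219 per kilobase in P80R B-ALL, 710.1 ± 25.0 in Pax5 KO and 742 ± 21.3 in Pax5 WT. In Pax5 WT the order was Mcm6, Mcm3, Mcm7, Mcm4, Mcm5, Gmnn, Mcm2, Cdc45, Cdt1 and Cdc6, and the ranges of neighbours overlapped along the stretch from Mcm7 through Mcm4 and Mcm5 to Gmnn. In Pax5 KO, Mcm4 stood next to Mcm3 and above Mcm5 and Mcm7, and Mcm3 and Mcm4 overlapped, as did Mcm5 and Mcm7. In P80R B-ALL, Gmnn stood second after Mcm6, and every pair of neighbours overlapped except Mcm2 and Cdc45. The place of Mcm2 as the lowest subunit depends on the length used, because its annotated exons add up to 6956 bases and its coding part to 2772; per kilobase of coding length Mcm2 was above Mcm4 in P80R B-ALL (4440.2 and 4363) with overlapping ranges.

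Among the helicase subunits, Mcm4, a target of the Cdc7 kinase at activation, had 9323, 12213, 16297 and 7495 scaled counts in the leukaemias of recipients 1300, 1301, 1302 and 1308, against 18113, 21445, 21441 and 19162 in Pax5 KO libraries 1 to 4 and 22098, 21196, 20972 and 20244 in Pax5 WT libraries 1 to 4. All 4 leukaemias lay below all 8 fetal liver libraries, whose groups overlapped each other. Mcm3, the subunit that in yeast docks on the origin recognition complex with Cdc6, had 12638, 17062, 17885 and 12206 in P80R B-ALL, against 19608, 22948, 21625 and 21109 in Pax5 KO and 26522, 25904, 25966 and 26405 in Pax5 WT. The 3 groups were fully separate for Mcm3, with P80R B-ALL lowest and Pax5 WT highest. Mcm6, which binds Cdt1, had 24515, 36935, 34704 and 23649 in P80R B-ALL, against 37421, 45079, 43917 and 41974 in Pax5 KO and 40540.0, 39983, 39666 and 39993 in Pax5 WT. All 4 leukaemias were below all 8 fetal liver libraries, but recipients 1301 and 1302 came close to the lowest Pax5 KO library, and the fetal liver groups overlapped. Mcm7, the subunit whose ubiquitylation removes the helicase from DNA at the end of replication, had 13682, 18576, 18530.1 and 12296 in P80R B-ALL, against 18018, 20825, 19725 and 19349.6 in Pax5 KO and 25634, 27606, 25574 and 26062 in Pax5 WT. P80R B-ALL and Pax5 KO overlapped for Mcm7, and Pax5 WT was above both. Mcm2, a subunit that also binds histones, had 10125, 13720.0, 15754 and 9635 in P80R B-ALL, against 16191, 18474, 18241 and 17326 in Pax5 KO and 18776, 18606, 18766 and 17701 in Pax5 WT. Every leukaemia was below every fetal liver library for Mcm2, by a small margin in recipient 1302. Mcm5, which forms with Mcm2 the gate of the ring, had 10387, 18937, 16345 and 11829 in P80R B-ALL, against 17613, 19758, 19708 and 19352 in Pax5 KO and 22184, 23385, 22525 and 22875 in Pax5 WT. Recipient 1301 reached the Pax5 KO range for Mcm5, and Pax5 WT lay above all other libraries. The summed counts of the 6 subunits were 98684 ± 22919 in P80R B-ALL, 139605 ± 9430 in Pax5 KO and 154796 ± 1686 in Pax5 WT (mean ± SD, n = 4 each). Within P80R B-ALL that sum was 80670 and 77109 in recipients 1300 and 1308, and 117443 and 119516 in recipients 1301 and 1302.

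Among the other members, Cdt1, which carries MCM2-7 to the origin, had 2185, 2141, 2377 and 1557 scaled counts in recipients 1300, 1301, 1302 and 1308, against 2745, 2667, 2503 and 2682 in Pax5 KO and 3275, 3179, 3252 and 3231 in Pax5 WT. As for Mcm3, the 3 groups did not overlap and P80R B-ALL was lowest. Cdc45 had 1763, 3283, 2517 and 2384 in P80R B-ALL, against 3625, 3673, 3505 and 3419.6 in Pax5 KO and 4415, 4443, 4388 and 4876 in Pax5 WT, again with separate groups in the same order. Gmnn did not follow that order: it had 7768, 10936, 6143 and 4647 in P80R B-ALL, against 4767, 4074, 4231 and 4427 in Pax5 KO and 7879.7, 7317, 7397 and 8722 in Pax5 WT. Pax5 KO was uniformly low for geminin, and the 4 leukaemias ran from the level of the Pax5 KO libraries, in recipient 1308, to above every Pax5 WT library, in recipient 1301. Cdc6 had 1868, 4187, 4142 and 2642 in P80R B-ALL, against 3721, 3890.3, 3586 and 3654 in Pax5 KO and 3797, 3934, 3777 and 4010.0 in Pax5 WT. For Cdc6 recipients 1301 and 1302 lay above all 8 fetal liver libraries and recipients 1300 and 1308 below all of them.

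**Figure D1:**
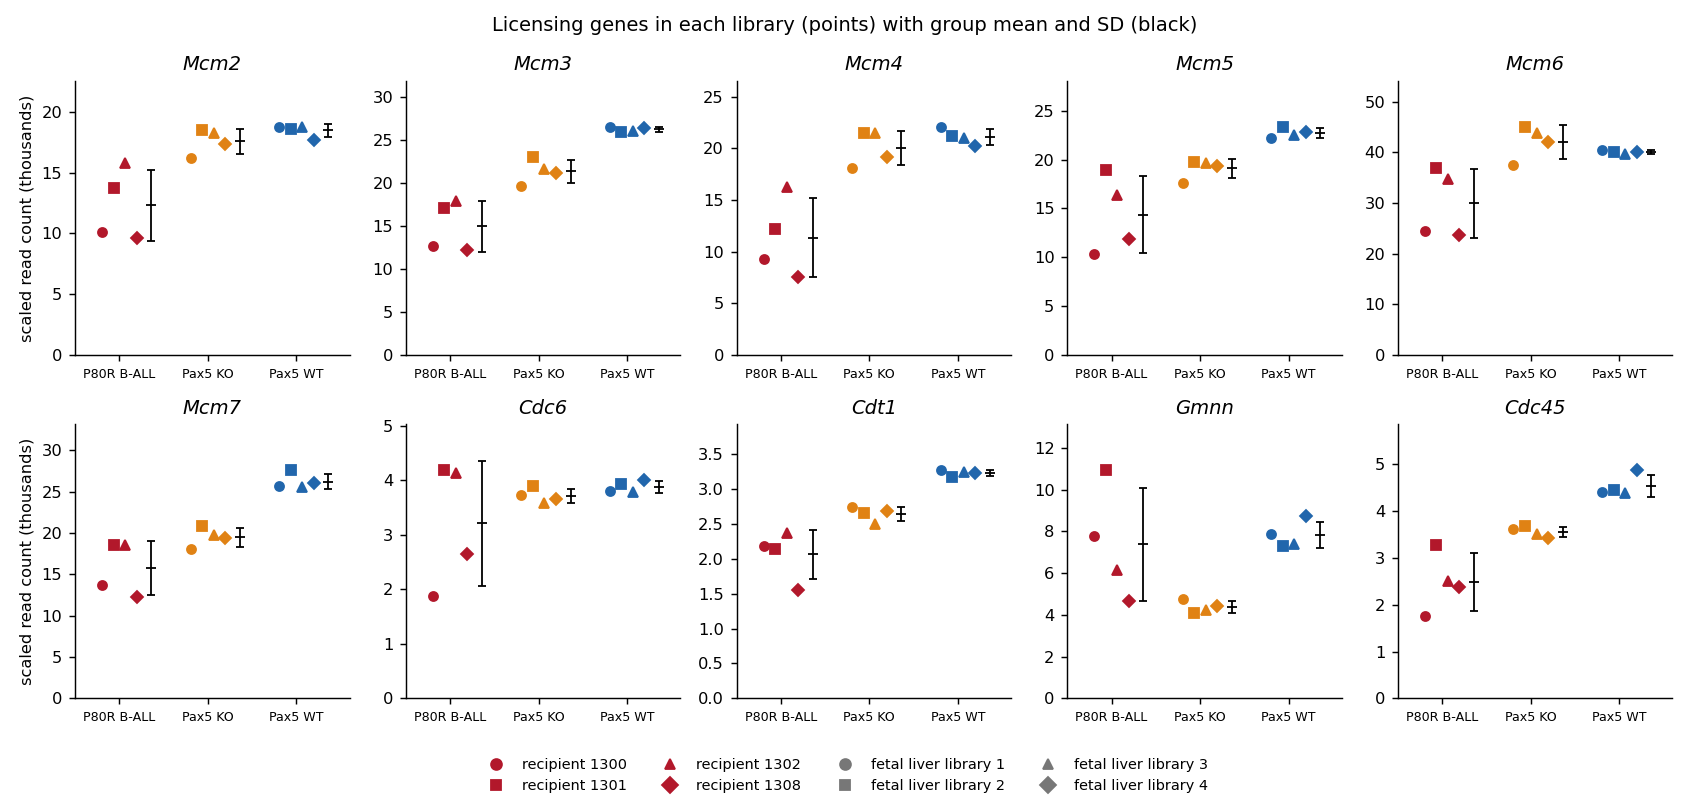
Scaled read count (in units of 1000, vertical axis starting at 0) of each of the 10 genes in the 4 P80R B-ALL, 4 Pax5 KO and 4 Pax5 WT libraries, as points, with the group mean and SD in black. Recipients 1300 and 1308 (circle and diamond) are the low leukaemias for 8 of the 10 genes, the exceptions being Cdt1 and Gmnn, and the fetal liver libraries are tightly grouped.

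P80R B-ALL was compared with Pax5 WT to set the leukaemia beside B-cell precursors with intact Pax5. Of the 10 genes, 7 were lower in P80R B-ALL (Mcm2, Mcm3, Mcm4, Mcm5, Mcm7, Cdt1 and Cdc45), 0 were higher and 3 (Mcm6, Cdc6 and Gmnn) did not pass. The test was limma's, with Benjamini-Hochberg adjustment over 12200 genes and a threshold of 0.05. Over all genes tested 39.9% passed, 18.9% as lower and 21.0% as higher, and the median log2 difference was -0.68 for the 10 genes and -0.00 for all genes tested. The subunit with the largest difference was Mcm4 (11332 ± 3838 in P80R B-ALL and 21128 ± 764 in Pax5 WT, mean ± SD, n = 4 each), a fold of 0.514 (-0.96 ± 0.22, adjusted p = 0.00726, log2 ± SE by limma). Cdc45 followed (2487 ± 624 in P80R B-ALL and 4530.5 ± 232 in Pax5 WT) at a fold of 0.537 (-0.90 ± 0.18, adjusted p = 0.00422, limma). Mcm3 stood at -0.83 ± 0.15 on the log2 scale, Mcm7 at -0.76 ± 0.16, Mcm5 at -0.70 ± 0.19, Cdt1 at -0.66 ± 0.15 and Mcm2 at -0.62 ± 0.17. Mcm6 was lower in all 4 leukaemias than in any Pax5 WT library but missed the threshold (-0.45 ± 0.17, adjusted p = 0.0568, limma). In all, 8 of the 10 genes did not overlap between the groups, with P80R B-ALL lower, where 40.6% of all genes did not overlap, 19.4% with P80R B-ALL lower and 21.2% with it higher. Cdc6 (-0.35 ± 0.25, adjusted p = 0.283, limma) and Gmnn (-0.15 ± 0.24, adjusted p = 0.631, limma) overlapped. By limma 0 genes were higher, and likewise 0 were higher at an unadjusted p under 0.05, by edgeR and by DESeq2.

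Without recipients 1300 and 1308, 2 leukaemias remained, and the same 7 genes passed against Pax5 WT with smaller differences. The median was -0.43 over the 10 genes. That fit took most of its spread from the 4 Pax5 WT libraries, which varied less, and the SE of Mcm3 was 0.09 in place of 0.15. Its calls therefore say little of the spread between leukaemias. The log2 difference became -0.33 for Mcm2, -0.37 for Mcm5, -0.50 for Mcm7 and -0.58 for Mcm4, each smaller by more than 1.5 times, and -0.58 for Mcm3, -0.52 for Cdt1 and -0.65 for Cdc45. Cdc6 stood at 0.10 and Gmnn at 0.07 in that pair of leukaemias, neither of which passed, and Mcm6 at -0.16. The call of Mcm2 was lost when Pax5 WT library 1, 2 or 3 was left out (adjusted p = 0.0523, 0.0517 and 0.0534 by limma), and Mcm6 passed when recipient 1301 (adjusted p = 0.0175) or 1302 (adjusted p = 0.0355) was left out. In sorted bulk cells, fewer dividing cells and less of each transcript per dividing cell cannot be told apart.

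P80R B-ALL was also compared with Pax5 KO, progenitors that lack the factor and are not leukaemic. By limma 5 of the 10 genes were lower in P80R B-ALL (Mcm2, Mcm3, Mcm4, Mcm6 and Cdc45), 1 was higher (Gmnn) and 4 (Mcm5, Mcm7, Cdc6 and Cdt1) did not pass, where 38.4% of all genes passed, 20.8% as lower and 17.6% as higher. Only 1 of the 10 was lower in edgeR, 2 in DESeq2 and 2 by limma with TMM scaling, with 1 higher in each. Over all 12200 genes tested, the same settings gave 1833, 2188 and 2291 lower and 2519, 2947 and 2281 higher. The share of members lower in these settings was thus close to that of all genes. The median log2 difference was -0.48 for the 10 genes and -0.11 for all genes tested. Mcm4 again showed the largest difference (11332 ± 3838 in P80R B-ALL and 20040.3 ± 1676 in Pax5 KO, n = 4 each), with a fold of 0.543 (-0.88 ± 0.22, adjusted p = 0.0146, limma). Mcm6 stood at -0.52 ± 0.17 (adjusted p = 0.0406, limma), Mcm3 at -0.53 ± 0.15 (adjusted p = 0.0247, limma), Mcm2 at -0.54 ± 0.17 (adjusted p = 0.0346, limma) and Cdc45 at -0.55 ± 0.18 (adjusted p = 0.0386, limma). Gmnn averaged 7374 ± 2695 in P80R B-ALL and 4375 ± 299 in Pax5 KO, 1.61-fold higher (0.68 ± 0.24, adjusted p = 0.0471, limma), although recipient 1308 lay inside the Pax5 KO range. Cdt1 did not overlap between the groups, with P80R B-ALL lower, but missed the threshold (-0.38 ± 0.15, adjusted p = 0.0747, limma), as did Mcm5 (-0.45 ± 0.19, adjusted p = 0.0908) and Mcm7 (-0.33 ± 0.16, adjusted p = 0.134), which overlapped. In all, 6 of the 10 genes did not overlap, with P80R B-ALL lower, where 42.4% of all genes did not overlap, 22.9% with P80R B-ALL lower and 19.5% with it higher.

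These calls against Pax5 KO were close to the threshold, apart from that of Mcm4. Mcm4 passed with any 1 of the 8 libraries left out, at a log2 difference of -1.08 to -0.70. The number of genes lower was 2 without Pax5 KO library 1 or recipient 1308, and 1 without Pax5 KO library 2, 3 or 4 or recipient 1300. The Gmnn call was lost in 7 of those 8 omissions, with its log2 difference between 0.47 and 0.88. Without recipients 1300 and 1308 together, Mcm4 (-0.50, adjusted p = 0.0271) and Mcm3 (-0.29, adjusted p = 0.0496) were lower by limma. That fit again held 2 leukaemias and took most of its spread from the fetal liver libraries. Gmnn was higher (0.91, adjusted p = 0.0146, limma). Over all 12200 genes tested, that omission gave 3389 lower and 2582 higher, so the share of members lower was below that of all genes. The calls of Mcm2 (-0.25), Mcm6 (-0.23) and Cdc45 (-0.31) were lost, and Mcm5 and Mcm7, which had not passed, stood at -0.12 and -0.07, Cdt1 at -0.23 and Cdc6 at 0.17. The scaling of the libraries and the choice of test also bear on this comparison. The median of all genes was -0.11 here, and by limma -0.07 with TMM scaling and -0.26 with library totals. It was 0.06 in edgeR, which was also scaled by TMM, and 0.08 in DESeq2. The median of the 10 genes under the same settings was -0.48, -0.44, -0.63, -0.38 and -0.36. Of all calls, 45.9% were higher here, 35.5% with library totals, 57.9% in edgeR and 57.4% in DESeq2.

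Pax5 KO was compared with Pax5 WT to set fetal liver cells without the factor beside pro-B and pre-BI cells that have it. In Pax5 KO, 6 of the 10 genes were lower (Mcm3, Mcm5, Mcm7, Cdt1, Gmnn and Cdc45), 0 were higher and 4 (Mcm2, Mcm4, Mcm6 and Cdc6) did not pass, where 64.8% of all genes passed, 29.1% as lower and 35.7% as higher. The median log2 difference was -0.27 for the 10 genes and 0.06 for all genes tested. Geminin showed the largest difference, averaging 4375 ± 299 in Pax5 KO and 7829 ± 645 in Pax5 WT (n = 4 each), a fold of 0.559 (-0.84 ± 0.07, adjusted p = 7.15e-07, limma). Mcm7 followed (19479 ± 1158 in Pax5 KO and 26219 ± 949.9 in Pax5 WT), with a fold of 0.742 (-0.43 ± 0.06, adjusted p = 3.06e-05, limma). Cdc45 stood at -0.35 ± 0.06, Mcm3 at -0.30 ± 0.05, Cdt1 at -0.29 ± 0.05 and Mcm5 at -0.25 ± 0.05 on the log2 scale. None of these 6 overlapped between the groups, where 59.1% of all genes did not overlap, 26.7% with Pax5 KO lower and 32.4% with it higher. The 4 genes that did not pass had small differences, at -0.07 ± 0.06 for Mcm2, -0.08 ± 0.06 for Mcm4, -0.06 ± 0.05 for Cdc6 and 0.07 ± 0.06 for Mcm6. By limma 0 genes were higher, and 0 were higher at an unadjusted p under 0.05, by edgeR and by DESeq2. Mcm6, however, was higher with library totals as the scaling (0.16, adjusted p = 0.0135 by limma) and without Pax5 KO library 1 (0.12, adjusted p = 0.0338 by limma). Where all 12 libraries shared 1 estimate of spread, only Gmnn and Mcm7 stayed lower, and the adjusted p by limma was 0.0878 for Mcm3, 0.245 for Mcm5, 0.0897 for Cdt1 and 0.0947 for Cdc45.

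**Figure D2:**
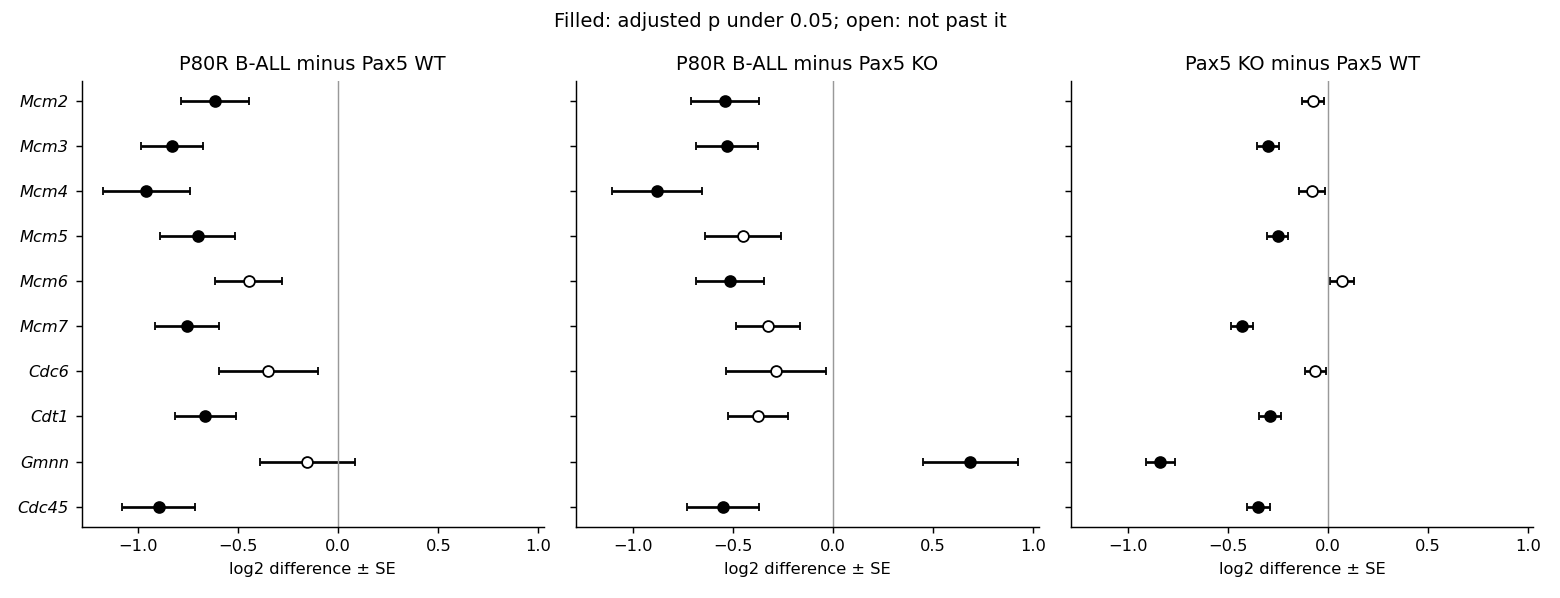
Log2 difference of each of the 10 genes with its SE by limma, for P80R B-ALL over Pax5 WT, P80R B-ALL over Pax5 KO and Pax5 KO over Pax5 WT (horizontal axis in log2 units; filled symbols passed at an adjusted p of 0.05). Gmnn is the gene furthest to the right in P80R B-ALL over Pax5 KO (0.68) and furthest to the left in Pax5 KO over Pax5 WT (-0.84).

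The members did not keep fixed proportions. The log2 ratio of Cdt1 to its inhibitor geminin, on scaled counts, was -1.83, -2.35, -1.37 and -1.58 in recipients 1300, 1301, 1302 and 1308 (-1.78 ± 0.42, mean ± SD, n = 4), -0.72 ± 0.08 in Pax5 KO and -1.27 ± 0.11 in Pax5 WT. Pax5 KO was above all other libraries, and P80R B-ALL and Pax5 WT overlapped through recipient 1302. As a linear ratio, which carries the different lengths of the transcripts and so is read only between groups, this was 0.300 ± 0.082 in P80R B-ALL, 0.607 ± 0.034 in Pax5 KO and 0.415 ± 0.031 in Pax5 WT. Within the helicase, the log2 ratio of Mcm6 to Mcm7 was 0.92 ± 0.06 in P80R B-ALL (0.84 to 0.99), 1.11 ± 0.04 in Pax5 KO (1.05 to 1.15) and 0.61 ± 0.05 in Pax5 WT (0.53 to 0.66). For this ratio the 3 groups were separate and the leukaemias were as tight as the fetal liver libraries, in contrast to the levels of both genes. The log2 ratio of Mcm4 to Mcm7 was -0.51 ± 0.23 in P80R B-ALL (-0.71 to -0.19), 0.04 ± 0.06 in Pax5 KO and -0.31 ± 0.08 in Pax5 WT, with Pax5 KO above the other groups and P80R B-ALL overlapping Pax5 WT. These ratios cancel the scaling of the libraries. They were computed after the levels were known and carry no test.

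**Figure D3:**
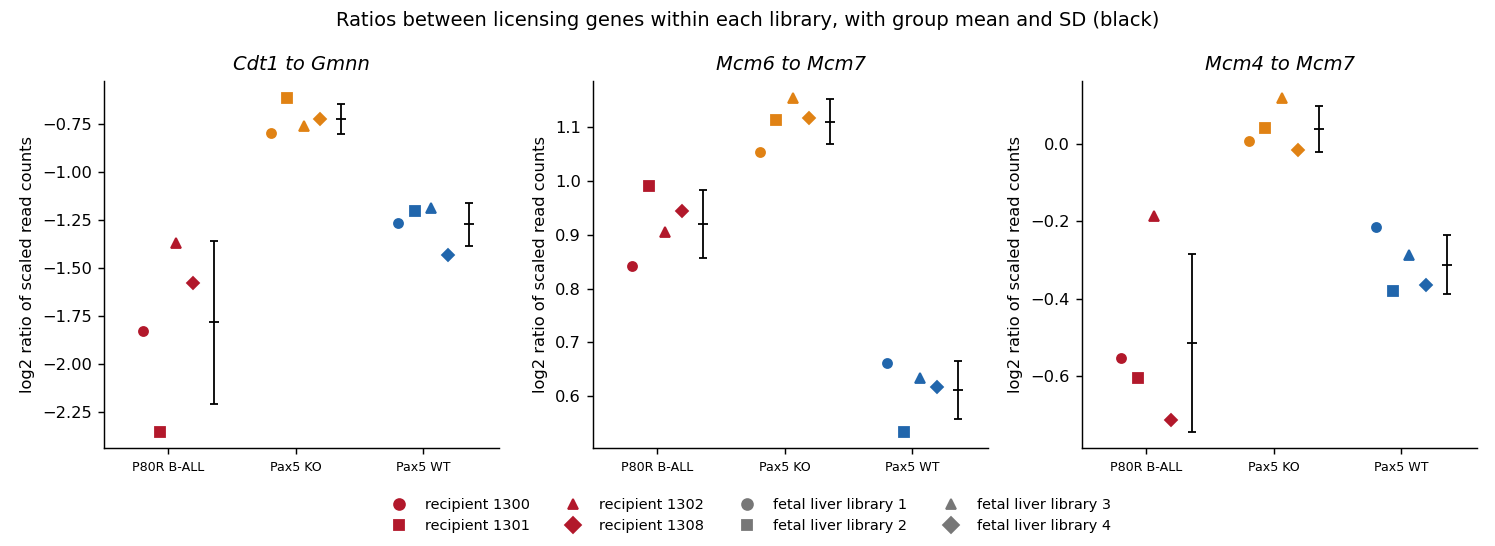
Log2 ratios of Cdt1 to Gmnn, Mcm6 to Mcm7 and Mcm4 to Mcm7 in each library (points), with the group mean and SD, for P80R B-ALL, Pax5 KO and Pax5 WT. Pax5 KO is highest in all 3 ratios, at -0.72, 1.11 and 0.04, and Mcm6 to Mcm7 separates all groups.

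As shares of the summed per-kilobase level of the 6 subunits, Mcm6 took 28.6 ± 0.97% in P80R B-ALL, 28.2 ± 0.41% in Pax5 KO and 24.0 ± 0.23% in Pax5 WT (mean ± SD, n = 4 each). The share of Mcm6 was thus higher in both groups than in Pax5 WT without overlap, and it overlapped between them. Mcm4 took 13.8 ± 2.08% in P80R B-ALL, 17.4 ± 0.48% in Pax5 KO and 16.5 ± 0.50% in Pax5 WT, and its range of 11.9 to 16.6% in P80R B-ALL reached into the Pax5 WT range. Mcm7 took 15.9 ± 0.64%, 13.8 ± 0.23% and 16.6 ± 0.50% in P80R B-ALL, Pax5 KO and Pax5 WT. Mcm3 took 17.8 ± 0.74% in P80R B-ALL, 17.8 ± 0.27% in Pax5 KO and 19.5 ± 0.33% in Pax5 WT. Mcm5 stood at 15.0 to 15.9% and Mcm2 at 7.43 to 7.89% in the group means. Shares depend on the length used, and by coding length the share of Mcm4 was 10.6% in P80R B-ALL, 13.4% in Pax5 KO and 12.7% in Pax5 WT, with the same order of groups. Part of the annotated exons of Mcm7 is shared with Ap4m1 (7.25% of its exon bases) and Cops6 (1.45%), and part of those of Cdc45 with Ufd1 (5.96%), and reads there cannot be told apart where strand is not marked.

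**Figure D4:**
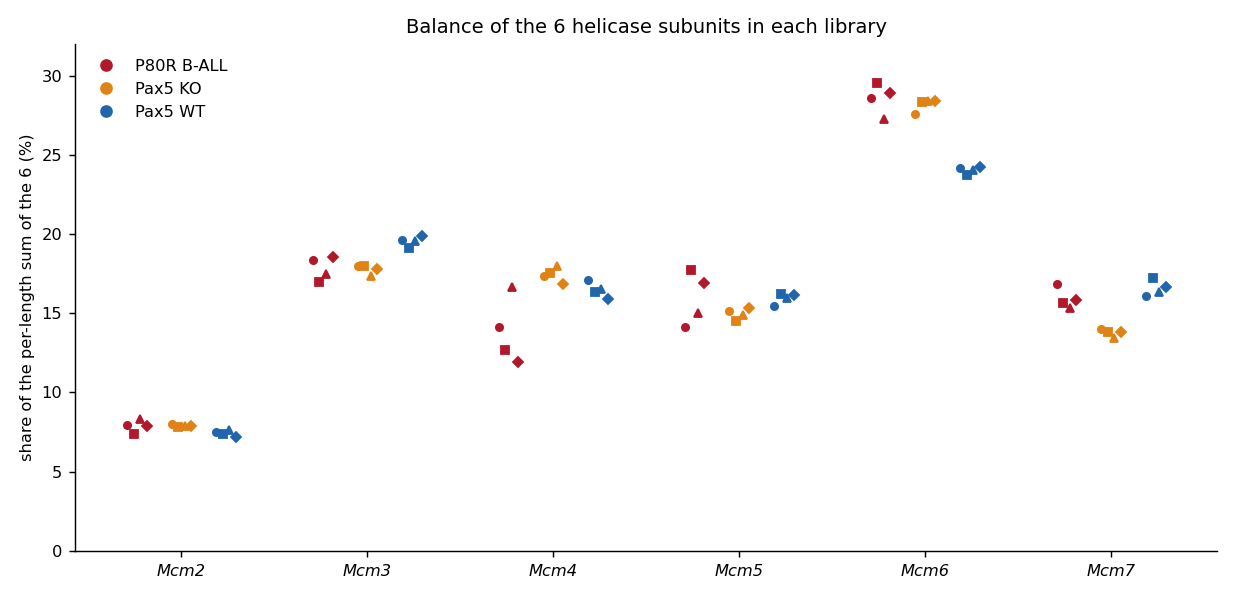
Share of each helicase subunit (percent, vertical axis from 0) in the summed per-kilobase level of Mcm2 to Mcm7, in each library (points) of P80R B-ALL, Pax5 KO and Pax5 WT. Mcm6 has the highest mean share in every group, at 28.6, 28.2 and 24.0%, and Mcm2 the lowest.

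The leukaemias differed among themselves more than the fetal liver libraries did. The coefficient of variation of the 10 genes was 17.1% (Cdt1) to 36.6% (Gmnn) in P80R B-ALL, 3.23% (Cdc45) to 8.36% (Mcm4) in Pax5 KO and 0.907% (Mcm6) to 8.24% (Gmnn) in Pax5 WT. The median of the 10 genes relative to the Pax5 WT mean was -0.99, -0.45, -0.41 and -0.94 on the log2 scale in recipients 1300, 1301, 1302 and 1308, against -0.28 to -0.20 in the Pax5 KO libraries. The low leukaemias, 1300 and 1308, were those with the highest sums of the 7 erythroid markers other than Tfrc and of the granulocyte and monocyte markers, although recipients 1301 and 1302 were also above the Pax5 WT libraries for both. Summed macrophage markers (4 genes) were 2331, 3556, 2909 and 15897 in recipients 1300, 1301, 1302 and 1308, against 55.7 to 70.7 in Pax5 KO and 6.00 to 9.89 in Pax5 WT. The part of these other cell types in the licensing levels was not tested, and the differences from Pax5 WT that remained in recipients 1301 and 1302 alone are those given above. Geminin went its own way among the leukaemias, with 7768 in recipient 1300 above 6143 in recipient 1302.

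The remaining licensing and replication genes were described from lists. None of the 6 genes of the origin recognition complex, which marks origins, passed by limma in P80R B-ALL against Pax5 WT or Pax5 KO. Against Pax5 WT their median log2 difference was 0.04, with 1 higher at an unadjusted p under 0.05, 0 by edgeR and 1 by DESeq2. Against Pax5 KO it was 0.29, with 3 higher at an unadjusted p under 0.05, 2 by edgeR and 3 by DESeq2. In Pax5 KO against Pax5 WT 4 of the 6 were lower, among them Orc1 (-0.62 ± 0.11, adjusted p = 0.000286, limma), which joins the complex anew in each G1, Orc6 (-0.33) and Orc2 (-0.32). Of the 14 genes of helicase activation and origin firing, 6 were lower and 0 higher in P80R B-ALL against Pax5 WT, and 3 lower and 2 higher against Pax5 KO. In Pax5 KO against Pax5 WT 10 were lower and 2 higher. Over all genes tested, 18.9% were lower and 21.0% higher in P80R B-ALL against Pax5 WT, 20.8% and 17.6% against Pax5 KO, and 29.1% and 35.7% in Pax5 KO against Pax5 WT, so the firing genes were near the share of all genes in P80R B-ALL against Pax5 KO. Ticrr (treslin), which helps Cdc45 onto the licensed ring, averaged 681 ± 340.0 scaled counts in P80R B-ALL, 1708 ± 96.0 in Pax5 KO and 2486 ± 556 in Pax5 WT, and was lower in P80R B-ALL than in Pax5 WT (-1.95 ± 0.32, adjusted p = 0.00128, limma) and Pax5 KO (-1.44 ± 0.29, adjusted p = 0.00538, limma). Mcm10, which binds the ring at activation, was lower in P80R B-ALL in both comparisons, at -1.18 against Pax5 WT and -0.91 against Pax5 KO (-0.76 and -0.49 without recipients 1300 and 1308). In Pax5 KO against Pax5 WT the firing genes with the largest differences were Gins3 of the GINS complex (-0.84), Dbf4, the activator of Cdc7 (-0.81), and Donson (-0.79). Of the 3 MCM paralogs and MCM-binding protein, Mcm8, a helicase of recombination repair, was lower in P80R B-ALL than in Pax5 WT (-0.80 ± 0.19, adjusted p = 0.00814, limma) and in Pax5 KO than in Pax5 WT (-0.43 ± 0.10, adjusted p = 0.00215, limma). None of these 3 passed in P80R B-ALL against Pax5 KO by limma, at an unadjusted p under 0.05 (0 genes), by edgeR (0) or by DESeq2 (0).

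Among 15 kinases, cyclins and ubiquitin ligase genes that control licensing, 10 were lower and 0 higher in P80R B-ALL against Pax5 WT, 6 lower and 1 higher against Pax5 KO, and 7 lower and 3 higher in Pax5 KO against Pax5 WT. Cdc20 (-1.56) and Fzr1 (-1.33), the activators of the ligase that destroys geminin, and Ccna2 (-1.51), the cyclin of S and G2 phase, had the largest differences of P80R B-ALL from Pax5 WT. Against Pax5 KO, Kat7, a histone acetyltransferase that works with Cdt1 (-1.14), and Ddb1, the adaptor of the ligase that destroys Cdt1 (-1.04), were lower. Cyclin E2 was higher, with Ccne2 at 6559 ± 3150.2 in P80R B-ALL and 2474 ± 162 in Pax5 KO (1.30 ± 0.27, adjusted p = 0.00626, limma). Of 13 E2F and pocket protein genes, 7 were lower and 0 higher in P80R B-ALL against Pax5 WT, 3 lower and 1 higher against Pax5 KO, and 9 lower and 1 higher in Pax5 KO against Pax5 WT. E2f2, an activating E2F, averaged 1192 ± 359 in P80R B-ALL, 805 ± 47.3 in Pax5 KO and 7613 ± 777 in Pax5 WT, and was lower in both groups than in Pax5 WT (-2.72 and -3.24). E2f7, a repressor of the family, was lower as well (-1.62 in P80R B-ALL and -1.62 in Pax5 KO, each against Pax5 WT). Of 30 fork enzymes, 15 were lower and 1 higher in P80R B-ALL against Pax5 WT, 6 lower and 6 higher against Pax5 KO, and 24 lower and 0 higher in Pax5 KO against Pax5 WT. Against the all-gene shares of 20.8% lower and 17.6% higher in P80R B-ALL against Pax5 KO, the counts of lower fork enzymes and of lower E2F and pocket protein genes were close to the background. Against Pax5 WT these lists and that of the kinases and ligases were above the 18.9% lower of all genes. Lig1, which joins lagging-strand fragments, was lower in P80R B-ALL (-1.45) and in Pax5 KO (-1.09) than in Pax5 WT. Pold4 (1.32), Rpa3 (1.12) and Rfc3 (1.09), small subunits of polymerase delta, the single-strand binding complex and the clamp loader, were higher in P80R B-ALL than in Pax5 KO. For all 3 genes P80R B-ALL overlapped Pax5 WT. Pold4 averaged 872 in P80R B-ALL, 338 in Pax5 KO and 1031 in Pax5 WT. Rfc3 was at 3374 to 5794, 1838 to 2038 and 3711 to 4058 in the same groups, and Rpa3 at 6445 to 12674, 3729 to 4242 and 5261 to 6760. All 8 genes of a list of general proliferation markers were lower in P80R B-ALL and in Pax5 KO than in Pax5 WT (median log2 difference -1.46 and -1.01), and 3 of 8 were lower in P80R B-ALL than in Pax5 KO (-0.38). Ccna2 and Cdk1, 2 of the 8, are also in the list of kinases and ligases. The count for P80R B-ALL against Pax5 WT was 7 of 8 with no filter, with TMM scaling, in edgeR, in DESeq2, without recipients 1300 and 1308, and with any 1 library other than recipient 1301 left out. Their summed level was 51662, 71742, 66259 and 57135 in recipients 1300, 1301, 1302 and 1308, against 81980.1 to 87183 in Pax5 KO and 156741 to 165056 in Pax5 WT. Both these markers and the licensing genes had medians below 0 against Pax5 WT. In Pax5 KO, however, these medians were -1.01 and -0.27, and Mcm2, Mcm4, Mcm6 and Cdc6 did not pass. Among the leukaemias, Top2a was lower in recipients 1300 and 1308 (13867 and 14932) than in 1301 and 1302 (17126 and 21346). Mki67, however, was highest in recipient 1300 (5935). The part of these markers in the licensing differences was not tested.

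The counts over these lists changed when libraries were left out, which also leaves fewer samples in a fit. Over all genes, P80R B-ALL against Pax5 KO gave 2532 lower. Leaving out any 1 Pax5 KO library gave 1596 to 1729, and leaving out any 1 leukaemia gave 2371 to 2954. The loss was thus common to the Pax5 KO libraries and does not mark a particular one. For the origin recognition complex, P80R B-ALL against Pax5 KO gave 1 higher without recipient 1300, 2 without recipient 1302, 2 without recipient 1308 and 4 without recipients 1300 and 1308. Against Pax5 WT it gave 1 higher without recipient 1300, alone or together with recipient 1308, and 1 lower without recipient 1301. For the firing genes against Pax5 KO, 1 was higher without any 1 of the Pax5 KO libraries or without recipient 1302, and 5 without recipients 1300 and 1308. For the kinases and ligases against Pax5 WT, 5 were lower without Pax5 WT library 1, 2 or 3 and 6 without recipient 1300, and 1 was higher without recipient 1308, alone or together with recipient 1300. Against Pax5 KO, 3 of them were lower without Pax5 KO library 2 or 3, and 2 were higher without recipient 1300, alone or together with recipient 1308. For the E2F and pocket proteins against Pax5 KO, 1 was lower without Pax5 KO library 1, 5 were lower without recipient 1302 or without recipients 1300 and 1308, and 2 were higher without recipient 1301. For the fork enzymes against Pax5 KO, 3 were lower without any 1 of the Pax5 KO libraries or without recipient 1308, and 3 were lower and 10 higher without recipients 1300 and 1308. Against Pax5 WT, 2 fork enzymes were higher without recipient 1302 or 1308. For Pax5 KO against Pax5 WT, 1 firing gene was higher without Pax5 KO library 1, 3 or 4 or Pax5 WT library 3 or 4, 2 E2F and pocket protein genes were higher without Pax5 KO library 4 or Pax5 WT library 1, and 2 MCM paralogs were lower without Pax5 WT library 4. With all 12 libraries in the fit, Pax5 KO against Pax5 WT gave 0 lower for the origin recognition complex, 5 for the firing genes, 0 for the paralogs, 7 for the E2F and pocket proteins and 13 for the fork enzymes. Where 0 genes of a list were higher against Pax5 WT by limma, edgeR and DESeq2 also gave 0, as did an unadjusted p under 0.05, except for the kinases and ligases and the origin recognition complex in P80R B-ALL (1 at an unadjusted p under 0.05 and 1 by DESeq2 in each).

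**Figure D5:**
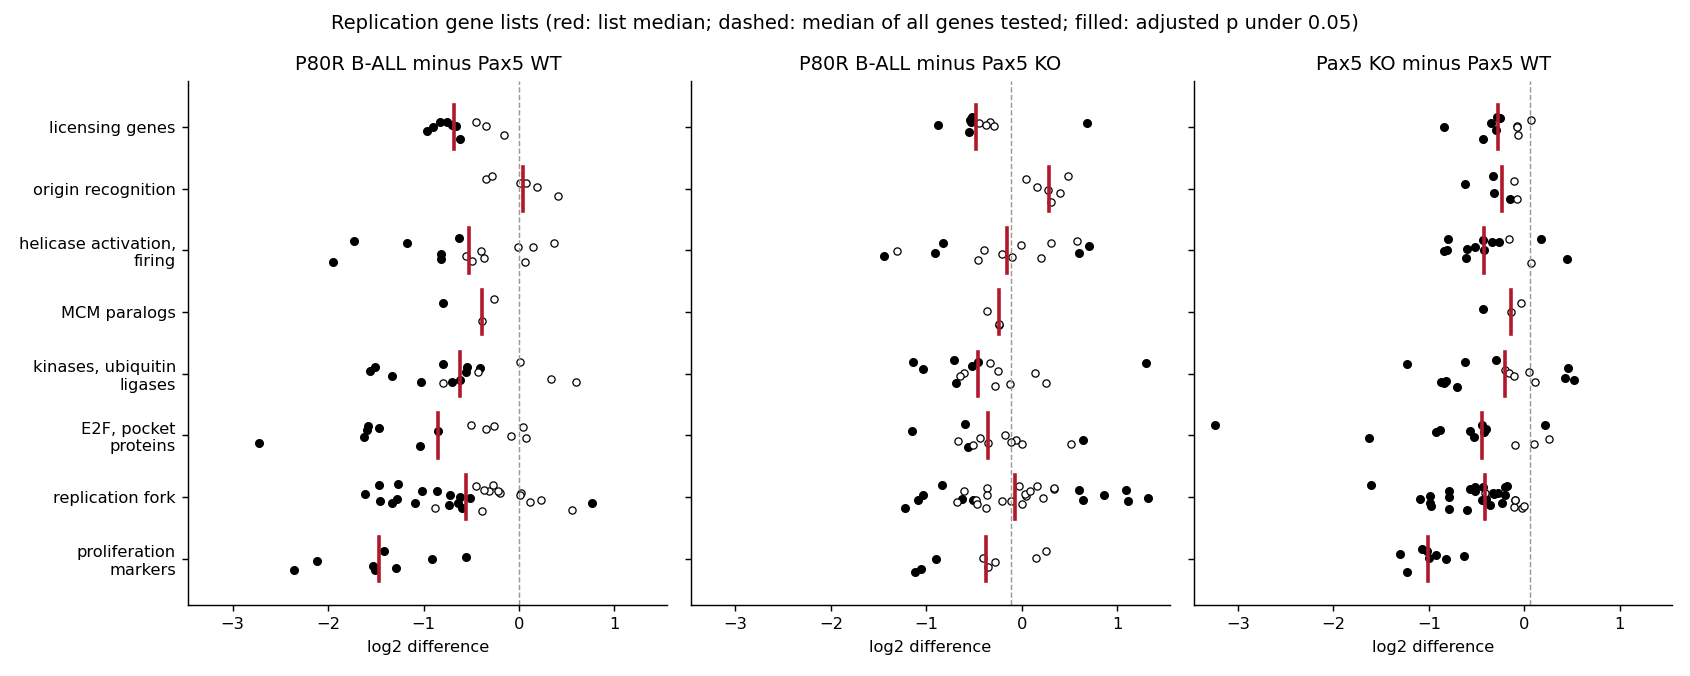
Median log2 difference of the 10 licensing genes and of the other gene lists in P80R B-ALL over Pax5 WT, P80R B-ALL over Pax5 KO and Pax5 KO over Pax5 WT, beside the median of all genes tested. The general proliferation markers lie furthest below 0 against Pax5 WT, at -1.46 in P80R B-ALL and -1.01 in Pax5 KO, and the origin recognition complex lies at 0.04 and 0.29 in the comparisons of P80R B-ALL.

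Among the genes whose pattern was most like the mean of the 10 (Pearson's r of centred log2 values over the 12 libraries, a description of points that share their groups and scaling) were Chaf1b (r = 0.989), Prpf31 (0.989), Nup93 (0.988) and Shmt2 (0.988), with Spearman's rho of 0.958, 0.909, 0.944 and 0.930 in that order. Chaf1b is a subunit of the chromatin assembly factor that works behind the fork, and it averaged 2748 ± 645 in P80R B-ALL, 3494 ± 71.2 in Pax5 KO and 4486 ± 156 in Pax5 WT. Among the members, which are part of that mean, r was 0.981 for Mcm5, 0.980 for Mcm3, 0.975 for Mcm7, 0.946 for Mcm2, 0.930 for Cdc45, 0.922 for Mcm4, 0.905 for Cdt1, 0.893 for Mcm6 and 0.808 for Cdc6. Gmnn was the exception, at 0.225.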

How the data were processed

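RNA was purified on columns and libraries were built with the SMART-Seq v4 kit, per the labels' protocols; this kit leaves strand unmarked. Reads were trimmed with fastp, aligned with STAR 2.7.8a to mm39 and counted with featureCounts, per the submitters' processing notes. Neither the gene annotation nor the settings for strand and for multiply mapped reads were stated there. The authors' deposited table holds a signal per gene, and every value was found to be a whole number of reads times 1 factor per library (0.722 to 1.38, with 100.0% whole within 0.001 reads). What the factors were computed from was not stated. Samples were grouped by their labels. Genes at 10 or more in 4 or more of the 12 libraries (12200 of 21885) were tested in each pair of groups with limma 3.58.1 (R 4.3.3) on log2(value + 1), with intensity trend, robust, two-sided, with Benjamini-Hochberg adjustment at 0.05; fold changes on this scale understate those of low genes. Only the 2 groups compared entered a fit, because the spread of P80R B-ALL was larger. Alternatives were a pseudocount of 10, no filter, TMM and library-total scaling, all 12 libraries, group weights, edgeR 4.0.16 and DESeq2 1.42.0 on the recovered reads, a replicate block, and leaving out libraries. Scripts were tested on simulated data. Gene lengths came from GENCODE M21, where 21780 identifiers matched and 105 did not, and promoters from RefSeq. Genes outside the set were named as the 3 with the largest differences among those that passed and did not overlap, per list and comparison, and as the 5 most like the mean of the set, of which 1 is not reported here. The smallest member count, 1125 reads, has a counting error of 2.98%, below the spread between leukaemias. Members and lists were chosen with earlier results of these data known. Of the listed genes, Skp1 and Trac were not analysed here.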

Additional observations from a re-analysis of the deposited data

Results flagged for a closer look

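Each of the 10 genes was examined in each group of 4 libraries for a single library far from the others (30 gene and group pairs), by the gap to the nearest library divided by the range of the group, against Dixon's 95% critical value. Pax5 WT library 4 stood apart for Mcm2, at 17701 scaled counts where the other 3 Pax5 WT libraries had 18606 to 18776 (gap over range 0.842). The same library stood apart for Cdc45, at 4876 where the others had 4388 to 4443 (0.887). Chance gives about 1 such pair in 20. Without Pax5 WT library 4, Mcm2 and Cdc45 both remained lower in P80R B-ALL than in Pax5 WT by limma.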

How the results depend on the processing

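No difference of a named gene that had passed changed sign under any alternative. Against Pax5 WT, the number of members lower in P80R B-ALL was 6 to 8 over the alternatives (7 as reported) and the number higher was 0. Against Pax5 KO, where 5 were lower and 1 higher, the number lower was 2 with TMM scaling, 1 in edgeR and 2 in DESeq2, the number higher was 0 with no filter on low values and with library totals, and leaving out 1 library gave 1 to 6 lower and 0 to 1 higher, with the values by library in the text above. Without recipients 1300 and 1308, 2 were lower, a smaller share than the 3389 lower of all 12200 genes. With TMM scaling, in edgeR and in DESeq2 the share of members lower was close to that of all genes. For Pax5 KO against Pax5 WT, with 6 lower and 0 higher, 2 were lower with all 12 libraries, 1 was higher with library totals, and leaving out 1 library gave 0 to 1 higher, the 1 being without Pax5 KO library 1; leaving out a library also leaves fewer samples, and the other causes were not tested. Over all genes, Pax5 KO against Pax5 WT gave 2449 higher and 1744 lower with all 12 libraries, against 4352 and 3549 as reported, and P80R B-ALL against Pax5 KO gave 1613 lower without Pax5 KO library 2 and 1596 without library 3, against 2532. DESeq2 moved the median of all genes in P80R B-ALL against Pax5 WT by 0.12. With the replicate number as a block, Pax5 KO against Pax5 WT again gave 6 members lower and 0 higher. Same-numbered fetal liver libraries had deviations correlated at 0.005 to 0.062, and 1 of the 4 Pax5 KO libraries correlated best with its own number. No pairing by number was visible, although these correlations cannot exclude one. Recql4 was lower in P80R B-ALL than in Pax5 WT but lost its call without Pax5 WT library 1, 2 or 3 and without recipients 1300 and 1308. Depth limits little here, since every member had over 1000 reads in each library, and the spread between the 4 leukaemias sets the precision.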
